A study of Mus musculus with 24 samples.

Results

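Female mouse kidneys collected in the active period were compared with female kidneys collected in the inactive period, as 6 RNA-seq libraries against 6. They are 12 of the 24 libraries of a study of kidney RNA by period and sex, and were chosen by their labels alone. Both groups are labelled as kidney of female mice and differ in the period label only, with samples taken around the middle of either period. Strain, genotype, age, lighting, feeding and clock times do not appear in the labels, and nothing in the labels says whether each library is a separate animal. A p-value here therefore reflects the variation within the groups of all 24 libraries, males included, part of which could be technical. The 6 active and 6 inactive male libraries served in the shared estimate of the spread and, in the last comparison, as the other sex. Genes with a mean of at least 10 normalized counts over the 24 libraries were tested, 17333 in all. A normalized count is the read count of a gene divided by 1 scaling factor per library, so it compares libraries for 1 gene and does not correct for gene length. Levels are means ± SD over n = 6 libraries per group unless a range is given, log2 folds are active over inactive ± SE on the scale log2(normalized count + 1), and adjusted p-values come from limma with the Benjamini-Hochberg method over all tested genes. A gene was called, or said to rise or fall, at an adjusted p under 0.05.

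Mice are active at night. Nearly all their cells carry a circadian clock in which the proteins BMAL1 and CLOCK switch on the Per, Cry and Rev-erb genes, whose products then switch off BMAL1 and CLOCK activity or the Bmal1 gene itself. The PAR bZIP factors (Dbp, Tef, Hlf) and the REV-ERB receptors pass this rhythm to other genes. In the kidney, filtration, blood flow and the excretion of sodium and potassium follow the time of day, and the nephron divides the work: the proximal tubule takes back sugar, amino acids, phosphate and most sodium, and the thick ascending limb, distal tubule and collecting duct adjust what is left.

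The libraries held 32263069 to 39302246 recovered reads in the active group and 31039867 to 38320991 in the inactive one. Kidney segment markers were abundant in all 12 libraries. The summed level of 14 proximal tubule markers was 402208 to 483943 normalized counts in the active and 446762 to 500395 in the inactive group. Of 12 adrenal markers 5, Cyp11b1, Cyp11b2, Nr5a1, Th and Dbh, were at 0 in all 12 libraries, and the summed level of the list was 183 to 233 in the active and 196 to 260.2 in the inactive group. The summed level of 9 fat cell markers ranged from 2018 to 7234 and from 2612 to 6828, and none of the 8 tested was called. On the first principal component of the 12 libraries (22.6% of the variance) every active library lay on 1 side and every inactive library on the other. Active replicates 3 and 4 stood apart from the rest on the second component (13.9%), and inactive replicate 6 on the third (8.68%). In active replicates 3 and 4, Pck1, the rate-limiting enzyme of gluconeogenesis, was at 36149.8 and 41597 normalized counts, while the other 4 active libraries held 97086 to 128171. Inactive replicate 6 held more RNA of the endoplasmic reticulum chaperone Hspa5 (26679) than the other 5 inactive libraries (12039 to 19898). Some of the results that depend on these libraries are given with and without them.

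Of the 17333 genes, 1382 (7.97%) were higher in the active period and 1210 (6.98%) were lower, 2592 together (15%). Most changes were small: called genes had a median fold of 1.23 among the higher and 1.30 among the lower. A log2 fold of at least 2 was reached by 16 higher and 13 lower genes, and 1 to 2 by 73 and 96, while 1071 and 791 changed by less than 0.5. All 6 active libraries lay outside the range of the 6 inactive ones for 680 of the higher and 548 of the lower genes, and for 130 of the 14741 genes not called. The split by direction moved with the scaling, to 1019 higher and 1570 lower when libraries were scaled to equal totals, where the median log2 fold of all genes was -0.034. Without active replicates 3 and 4 together, 1153 genes were higher and 861 lower, and 1771 of the 2592 genes kept their call. Without inactive replicate 6 the counts were 1468 and 1177.

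**Figure D1:**
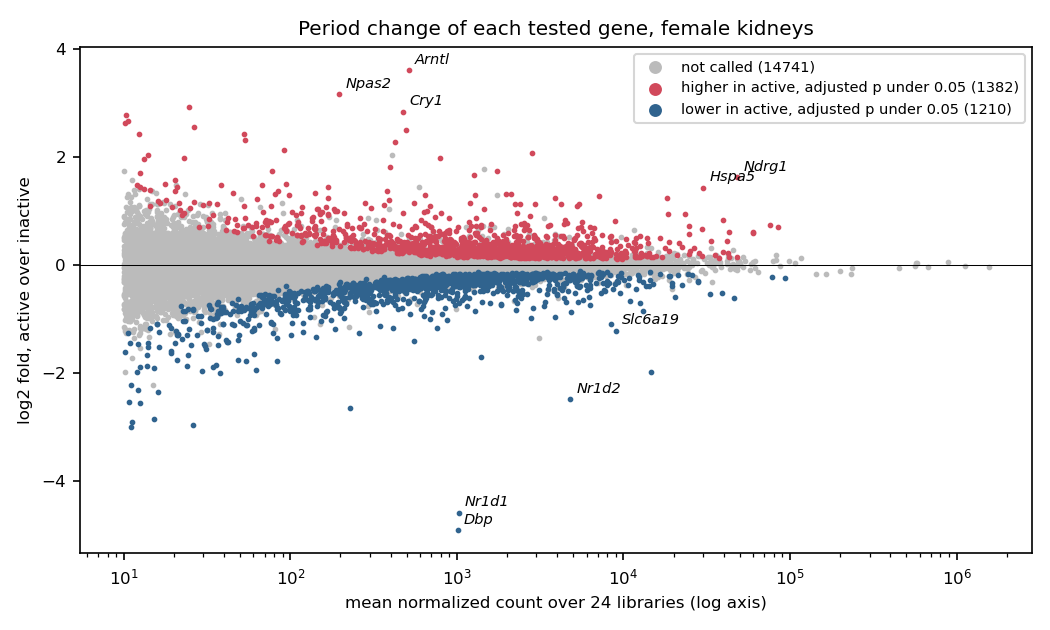
Log2 fold of the active over the inactive period in female kidneys (vertical axis) against the mean normalized count over 24 libraries (horizontal log axis), 1 point per tested gene, coloured by call. The 1382 higher and 1210 lower genes lie mostly within a log2 fold of 1, and clock genes such as Arntl and Dbp lie at the edges.

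Clock genes held the largest rises and falls among called genes whose groups did not overlap and whose higher mean reached 50 normalized counts. All 6 genes of the Bmal1 arm, the activators and the genes that peak with them, rose, with a median log2 fold of 2.56, while the median over all tested genes was -0.002. Arntl (ENSMUSG00000055116), the gene of BMAL1 itself, held 924 to 1336 (median 1195) in the active libraries and 36.2 to 164 (median 113) in the inactive ones, with no overlap (log2 fold 3.62 ± 0.34, adjusted p = 1.82e-07). Its active libraries were close together, but its inactive libraries were not: replicates 1, 2 and 4 held 164, 159 and 149, and replicates 3, 5 and 6 held 76.9, 63.8 and 36.2. Npas2, which can stand in for CLOCK, was at 289.6 to 546 (median 439) in the active libraries and 34.2 to 65.1 (median 44.5) in the inactive ones. It was 9.15-fold higher in the active group and the groups did not overlap. Cry1, a repressor whose RNA peaks later than those of the Per genes, was at 813 to 1087 (median 1030.3) in the active libraries and 70.7 to 316 (median 117) in the inactive ones. Its highest inactive libraries were replicate 5 (316) and replicate 6 (209). Nfil3, a repressor of genes with a D-box, rose 4.80-fold, and Clock, whose product pairs with BMAL1, rose 1.46-fold.

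Of the 13 genes of the Rev-erb, Per and PAR bZIP arm, 8 fell and 5 did not pass. Nr1d1, the gene of the repressor REV-ERB alpha, was at 62.2 to 118 (median 100.5) in the active libraries and 1979.6 to 2492 (median 2278) in the inactive ones, and its inactive libraries were the more alike of the groups in proportion to their level. Dbp, a PAR bZIP factor and direct BMAL1 target, was at 52.5 to 92.6 (median 68.3) in the active libraries and 1497 to 2609 (median 2261) in the inactive ones. It fell 30.5-fold, the largest fold among the genes of both arms. Nr1d2, the gene of REV-ERB beta, was at 1216 to 1916 (median 1390.2) in the active libraries and 6921 to 9810.2 (median 8201) in the inactive ones, again with a wide gap between the groups. Ciart, a repressor of BMAL1 and CLOCK, was at 50.7 to 69.3 (median 59.9) in the active libraries and 179.9 to 666 (median 411) in the inactive ones. Per3, a period gene, fell 3.25-fold, the repressor Bhlhe41 2.51-fold and the PAR bZIP gene Tef 2.12-fold, none with overlapping groups. The groups of the last PAR bZIP gene, Hlf, overlapped (log2 fold -0.17 ± 0.06, adjusted p = 0.0378), and its call was lost without active replicate 3, 4, 5 or 6 or inactive replicate 3, 5 or 6.

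Per1, Per2 and Usp2, which did not pass, differed widely among the inactive libraries. Per1, a repressor that light and hormones induce at once, was at 943 to 1988 (median 1478) in the active libraries and 680.3 to 2225 (median 1596) in the inactive ones. Inactive replicates 3, 5 and 6 held 2007, 2083 and 2225, more than any active library, while inactive replicates 1 and 2 held 680.3 and 870.3, less than any active library, and replicate 4 held 1184. The log2 fold of 0.01 ± 0.38 was therefore a mean over values on both sides of the active range. Per2, the other light-responsive period gene, was at 2222 and 2335 in inactive replicates 5 and 6, inside the active range of 1902 to 2439. The other 4 inactive libraries held 987 to 1627, below it. Leaving out inactive replicate 5 or 6 put Per2 past the threshold (adjusted p = 0.0399 and 0.0282). The same 3 inactive libraries, replicates 3, 5 and 6, were the highest of their group for Ciart, with 509, 666 and 622 normalized counts against 179.9 to 314 in replicates 1, 2 and 4. They were also the highest for Nr1d2, Per3, Tef and Usp2, a deubiquitinase with a strong daily rhythm, and the lowest for Arntl. For Usp2 the inactive range of 2537 to 4304 held all 6 active values, and its fold did not pass (log2 fold -0.16 ± 0.12, adjusted p = 0.454). The labels give no clock time for any library. Cry2, which encodes the other cryptochrome (log2 fold 0.16 ± 0.09, adjusted p = 0.237), had overlapping groups. So had Bhlhe40, a repressor related to Bhlhe41 (log2 fold -0.00 ± 0.14, adjusted p = 0.997). For Bhlhe40 inactive replicates 3, 5 and 6 were again the highest of their group. For Cry2 inactive replicate 5 was the highest and inactive replicate 6 the lowest.

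**Figure D2:**
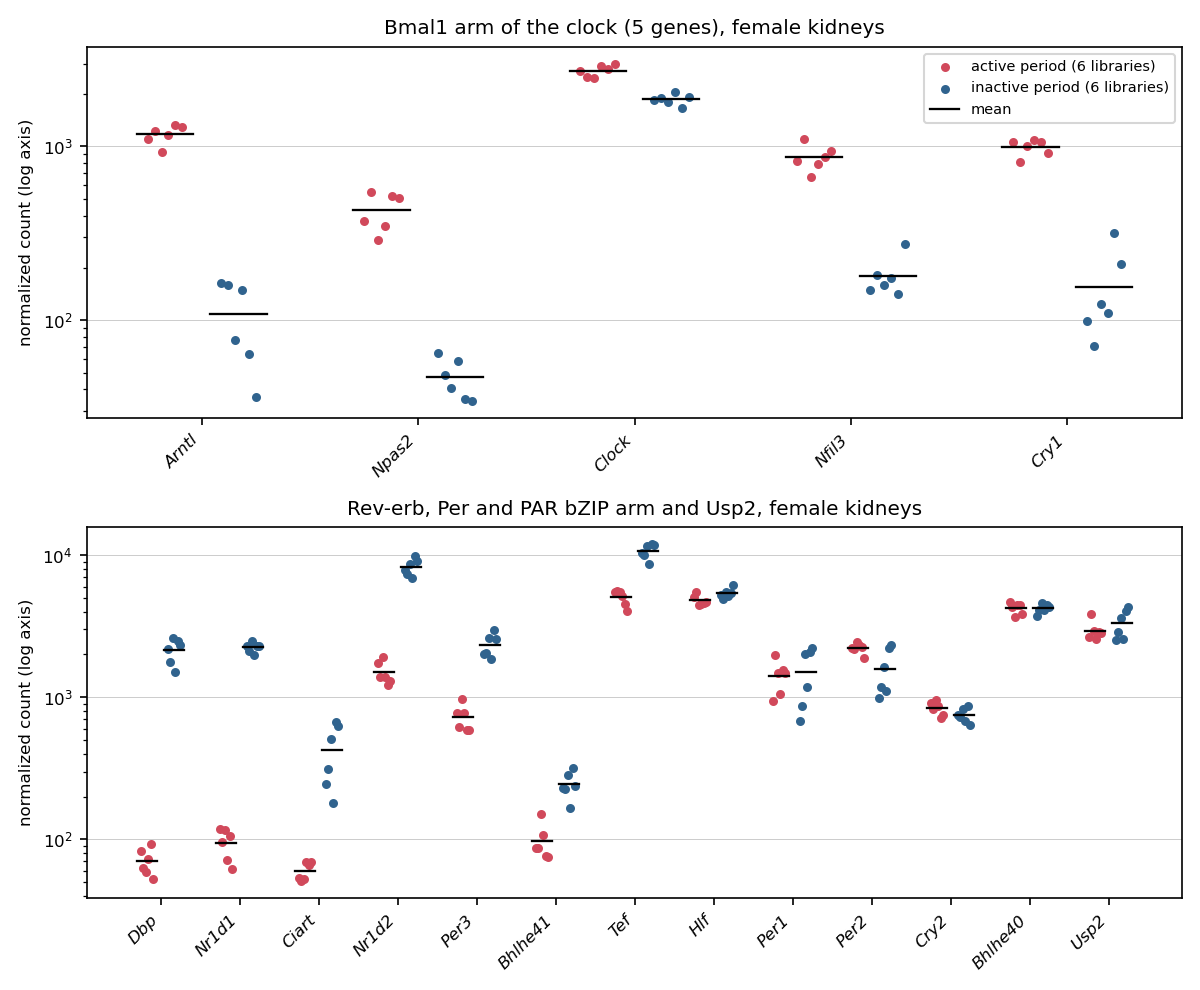
Normalized counts (log axis) of clock genes and Usp2 in the 6 active and 6 inactive female libraries, 1 point per library, set side by side from replicate 1 to 6, with the group mean as a line. The groups of the 5 genes drawn from the Bmal1 arm and of Dbp, Nr1d1, Ciart, Nr1d2, Per3, Bhlhe41 and Tef do not overlap, and the inactive values of Per1 run from 680.3 to 2225.

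BMAL1 and CLOCK bind the E-box, CACGTG, a palindrome that reads alike on both strands. Among the 250 bases upstream of the annotated starts of 27025 genes (RefSeq, GRCm38.p6, any start of a gene), 6.86% held it. It was found in 119 of 1066 genes that rose (11.2%), 111 of 933 that fell (11.9%) and 909 of 10097 tested genes not called (9%). Among the clock genes it stood in this window of Cry1, Per1, Bhlhe41, Ciart and Tef. The windows of 3 genes with E-boxes are shown because they pair the motif with a fall (Ciart at chr3:95882229-95882478, minus strand; Tef at chr15:81802423-81802672, plus strand) and with a rise (Slc16a1, a lactate carrier described below, at chr3:104638414-104638663, plus strand). Each runs 5′ to 3′ up to the base before the start, with the E-box in capitals.
Ciart: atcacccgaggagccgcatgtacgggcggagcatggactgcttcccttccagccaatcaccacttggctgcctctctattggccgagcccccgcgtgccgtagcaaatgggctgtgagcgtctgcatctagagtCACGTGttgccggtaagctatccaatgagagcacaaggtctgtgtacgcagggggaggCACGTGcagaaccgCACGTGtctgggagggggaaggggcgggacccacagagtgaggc
Tef: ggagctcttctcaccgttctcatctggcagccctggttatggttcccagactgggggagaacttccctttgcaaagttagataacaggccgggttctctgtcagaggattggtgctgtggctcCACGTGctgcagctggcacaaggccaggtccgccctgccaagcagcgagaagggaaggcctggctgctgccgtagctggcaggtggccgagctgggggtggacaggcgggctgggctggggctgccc
Slc16a1: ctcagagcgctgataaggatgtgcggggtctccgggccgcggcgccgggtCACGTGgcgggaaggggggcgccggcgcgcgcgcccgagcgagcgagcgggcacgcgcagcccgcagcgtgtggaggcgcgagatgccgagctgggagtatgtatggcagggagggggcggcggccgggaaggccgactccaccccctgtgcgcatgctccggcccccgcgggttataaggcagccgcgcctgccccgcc
Ciart holds 3 E-boxes, which begin 116, 58 and 44 bases before its start, and the other two hold 1 each. A match of these letters is a description of the window and not a measured binding site. The D-box TTANGTAA, read by the PAR bZIP factors and NFIL3 (both strands, any base at N), was in 2.44% of all windows, 2.91% of those of genes that rose, 1.82% of those that fell and 1.64% of those of tested genes not called.

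Genes that fold, modify and export proteins in the endoplasmic reticulum (ER) made up the next group of related genes with many rises. Of 22 tested ER chaperones and co-chaperones 11 rose, 1 fell and 10 did not pass (median log2 fold 0.25), against 7.97% higher among all tested genes. Hspa5, the main ER chaperone, also called BiP, was at 36660.1 to 49173 (median 45506) in the active libraries and 12039 to 26679 (median 14937) in the inactive ones. The groups did not overlap, though inactive replicate 6 came nearest to the active range (log2 fold 1.44 ± 0.16, adjusted p = 3.11e-06, and log2 fold 1.58 without that library). Hyou1, a large chaperone that works with BiP, was at 4669 to 6282 (median 5645) in the active libraries and 1999.6 to 3303 (median 2135) in the inactive ones. Sdf2l1, which keeps BiP bound to its clients, had the largest fold of the set, with means of 816 ± 174 and 231 ± 56.2 normalized counts (log2 fold 1.82 ± 0.23, adjusted p = 6.05e-06). Dnajb11 (1.71-fold) and Dnajc3 (1.45-fold), co-chaperones of BiP, and Hsp90b1, the HSP90 of this compartment (1.92-fold), rose with separated groups. Cnpy2, an ER protein of the canopy family, was the member that fell (log2 fold -0.27 ± 0.07, adjusted p = 0.00769, and adjusted p = 0.0748 without active replicates 3 and 4). Inactive replicate 6 was the highest inactive library for Hspa5, Hyou1, Sdf2l1 and Xbp1, and without it 11 of the chaperones were higher.

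Genes of the steps before and after folding rose as well. Of 39 genes of the translocon and N-glycosylation, which feed proteins into the ER and add sugar chains, 16 rose and the other 23 did not pass, among them the glycoprotein folding sensor Uggt1 (0.52 ± 0.05) and the pore subunit Sec61a1 (0.36 ± 0.05). Of 18 disulfide isomerases and ER oxidoreductases 8 rose and 1 fell, with log2 folds of 0.76 ± 0.10 for Pdia4 and 0.69 ± 0.10 for Pdia6, which form disulfide bonds. Of 22 genes of ER-associated degradation, which returns misfolded proteins to the cytosol, 8 rose and 14 did not pass, among them the ligase adaptor Sel1l (0.40 ± 0.06). Of 37 genes of ER to Golgi transport 13 rose and 2 fell, among the former the coat protein genes Sec31a (0.28 ± 0.05) and Sec23b (0.36 ± 0.08). The falls were 1 without active replicate 1 or 4, inactive replicate 5 or active replicates 3 and 4 together. With library weights 25 genes of the translocon list and 20 of the transport list rose. These shares of higher genes compare with 7.97% of all tested genes. Of 22 stress sensor and signalling genes 4 rose and 1 fell, and without inactive replicate 3 it was 2 and 0. The fall was also lost without active replicate 2, 3, 4, 5 or 6 or inactive replicate 4 or 6, and with library weights 7 rose. Xbp1, the transcription factor that induces ER chaperones, was at 5701 to 6999.6 (median 6495) in the active libraries and 3686 to 5459 (median 3801) in the inactive ones. Its groups did not overlap (log2 fold 0.64 ± 0.09, adjusted p = 2.48e-05).

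The ER stress response element, CCAAT and CCACG spaced by 9 bases of any kind, is read by ATF6 and XBP1. On either strand it was in 35 of 27025 upstream windows (0.13%). Of the 1066 genes with a window that rose 12 held it (1.13%), of the 933 that fell none did, and of the 10097 not called 7 did (0.0693%). The windows of 3 chaperone genes that rose are shown with the element in capitals: Hspa5 (chr2:34771840-34772089, plus strand), Hsp90b1 (chr10:86705445-86705694, minus strand) and Creld2 (chr15:88819396-88819645, plus strand), the last a small secreted ER protein at 1748 ± 206 and 728 ± 246 normalized counts.
Hspa5: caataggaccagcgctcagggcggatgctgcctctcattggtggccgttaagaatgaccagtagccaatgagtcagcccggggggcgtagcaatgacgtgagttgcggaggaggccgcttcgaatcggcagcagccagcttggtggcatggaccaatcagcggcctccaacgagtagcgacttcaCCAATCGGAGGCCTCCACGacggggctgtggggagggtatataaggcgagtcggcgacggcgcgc
Hsp90b1: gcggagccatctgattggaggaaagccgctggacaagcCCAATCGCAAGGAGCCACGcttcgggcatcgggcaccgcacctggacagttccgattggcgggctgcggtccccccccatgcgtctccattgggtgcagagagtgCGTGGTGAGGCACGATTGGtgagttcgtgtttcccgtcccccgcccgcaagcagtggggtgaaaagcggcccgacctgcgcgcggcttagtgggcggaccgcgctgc
Creld2: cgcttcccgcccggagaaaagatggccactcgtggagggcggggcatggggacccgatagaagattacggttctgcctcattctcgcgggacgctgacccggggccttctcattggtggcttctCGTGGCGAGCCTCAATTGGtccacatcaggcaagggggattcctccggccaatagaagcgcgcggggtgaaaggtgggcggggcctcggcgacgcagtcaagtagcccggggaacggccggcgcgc
Hsp90b1 holds 2 copies, of which the one nearer the start reads on the reverse strand, as does the copy of Creld2. The other genes that rose with this element were Calr, Canx, Dnajc3, Pdia6, Derl3 and Syvn1 of the ER folding and degradation lists, the glycosylation gene Alg12, and Acnat2 and Hnrnpa3. Derl3 lost its call without active replicate 1, 5 or 6 or inactive replicate 1, 2 or 5.

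Cytosolic chaperones rose with those of the ER. Of 39 cytosolic and mitochondrial heat shock genes 19 rose and 20 did not pass (median log2 fold 0.23), against 7.97% higher among all tested genes. Hspa8, the constitutive HSP70, was at 62335 to 85847 (median 72566) in the active libraries and 32956 to 64196 (median 42671) in the inactive ones. Its groups overlapped because inactive replicate 6 held 64196, above the lowest active library (log2 fold 0.74 ± 0.15, adjusted p = 0.00182). Hsp90aa1, the inducible cytosolic HSP90, was at 20558 to 26193 (median 22590.2) in the active libraries and 11037 to 14564 (median 11398) in the inactive ones, with no overlap. Its co-chaperones Stip1 (0.74 ± 0.12) and Fkbp4 (0.52 ± 0.09), the latter a partner of steroid receptors, rose too.

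Parts of the machinery that makes and degrades proteins were higher in the active period. Among all tested genes 7.97% were higher and 6.98% lower, 15% together. Of 33 genes of tRNA charging and the amino acid response 13 rose and 3 fell (median log2 fold 0.15). Aars, which charges tRNA with alanine, was at 2517 to 3181 (median 2905) in the active libraries and 2006 to 2453 (median 2310.3) in the inactive ones, with no overlap, and Nars, Wars and Tars, which charge it with asparagine, tryptophan and threonine, rose by log2 folds of 0.27 ± 0.04, 0.36 ± 0.06 and 0.33 ± 0.06. Of 41 translation factors (median log2 fold 0.066) 11 rose and 1 fell. The one that fell, Eif4b, a helper of the mRNA helicase, had the largest change of them (log2 fold -0.37 ± 0.05, adjusted p = 6.20e-07). Of 40 proteasome and ubiquitin genes (median log2 fold 0.068) 11 rose and 29 did not pass, and 7 and 7 rose without inactive replicate 3 or 5. Psmd11, a subunit of the lid of the proteasome, was at 2805 to 3066 (median 2879) in the active libraries and 1823 to 2317 (median 1977) in the inactive ones, and its groups were separate. Of 48 ribosome biogenesis genes (median log2 fold 0.059) 10 rose and 2 fell, the latter 1 without active replicate 2, 3 or 5 or any of inactive replicates 2 to 6. Of 85 cytosolic ribosomal proteins 1 passed, a fall of Rpl3 (-0.18 ± 0.05), with a median log2 fold of 0.02.

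The mitochondrial transcripts split by kind. None of the 13 mitochondrially encoded mRNAs was called by limma (0 at an unadjusted p under 0.05, 0 called by edgeR and 0 by DESeq2). The mitochondrial ribosomal RNAs rose: mt-Rnr2 was at 102583 to 143721 (median 110998) in the active libraries and 56494 to 90687 (median 68158) in the inactive ones and mt-Rnr1 at 64431 to 84289 (median 68356) in the active libraries and 38658 to 58490.2 (median 45421) in the inactive ones. Neither had overlapping groups, and active replicate 4 was the highest library for both. They made up 0.3702 ± 0.0565% (mt-Rnr2) and 0.2251 ± 0.0278% (mt-Rnr1) of the signal of active libraries. All libraries were poly A selected. Of 77 nuclear genes of the respiratory chain 1 passed, Ndufab1 (log2 fold 0.18 ± 0.06, adjusted p = 0.0242), against 15% of all tested genes. Its call was lost without active replicate 2 or 5 or inactive replicate 1, 3 or 5.

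**Figure D3:**
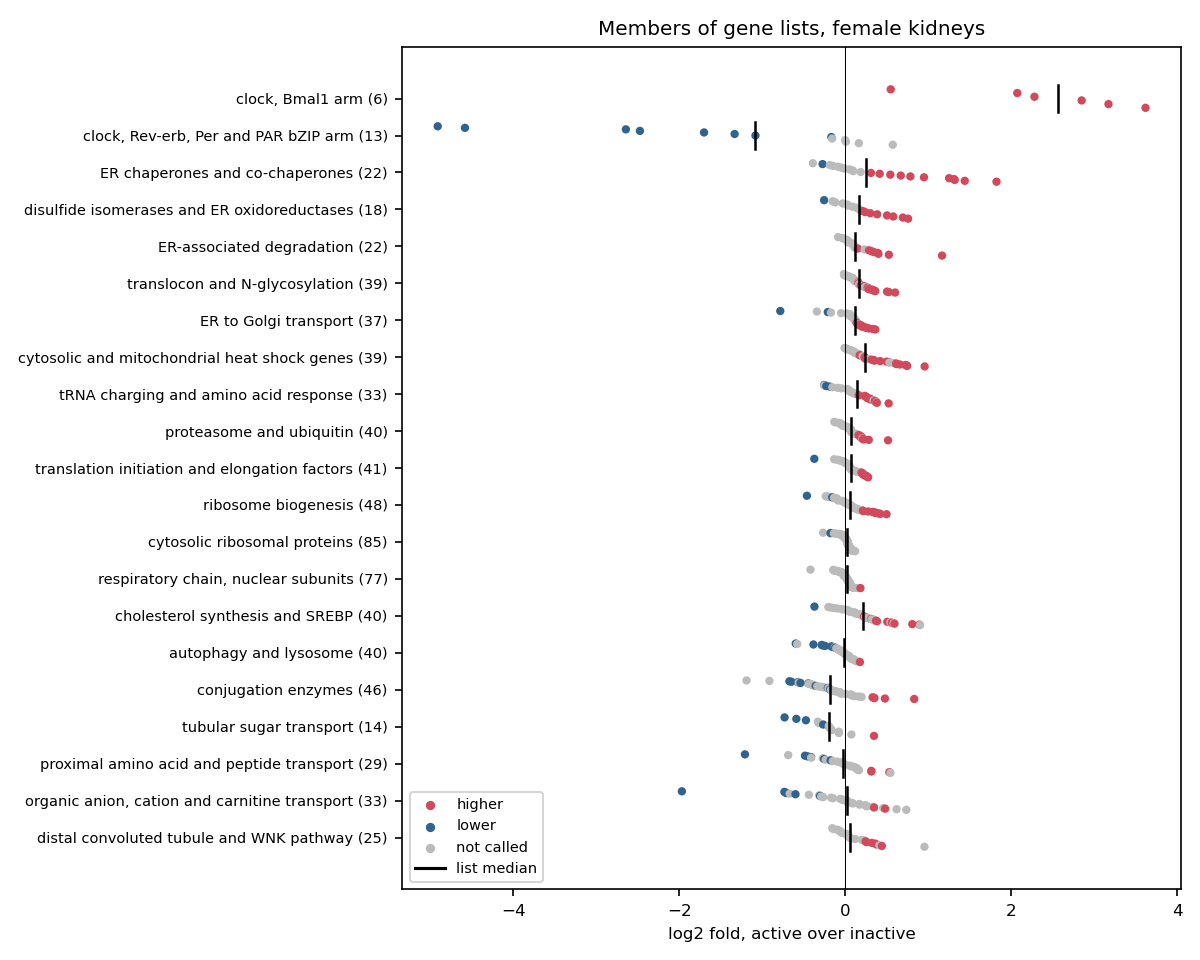
Log2 fold of the active over the inactive period (horizontal axis) of the tested members of 21 gene lists in female kidneys, 1 point per gene, coloured by call, with the list median as a line and the number of tested members beside the name. Members of the ER and heat shock lists reach to the right, those of the tubular sugar transport list mostly to the left, and the ribosomal protein and respiratory chain lists lie around 0.

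Genes induced by glucocorticoids, the adrenal hormones that peak before the active period, were in part higher. Of 25 tested targets 6 rose, 1 fell and 18 did not pass, against 7.97% higher and 6.98% lower among all tested genes. Sgk1, a kinase that keeps the sodium channel ENaC at the cell surface, was at 11280.4 to 18970.1 (median 15486) in the active libraries and 3979.6 to 8225 (median 6636) in the inactive ones, and Tsc22d3, the glucocorticoid-induced leucine zipper, at 3616 to 5873 (median 4079) in the active libraries and 1263 to 2974 (median 1885) in the inactive ones. The groups of neither gene overlapped. The inactive libraries with the most Per1, replicates 3, 5 and 6, also had the most Tsc22d3 (2133, 2658 and 2974) and Sgk1 (7449, 8225 and 7638) of their group. Fkbp5, a feedback co-chaperone of the glucocorticoid receptor, rose with groups that overlapped at inactive replicate 6 (log2 fold 0.74 ± 0.17, adjusted p = 0.00478). Of 31 immediate early genes 26 had a positive fold (median log2 fold 0.40), against 49.7% of all tested genes. Few of the 31 passed (6.5%, against 15% of all tested genes). Fos, a subunit of the factor AP-1, was at 98.8 to 779 (median 299) in the active libraries and 23.7 to 246 (median 85.1) in the inactive ones, and Egr1, a zinc finger factor, at 411 to 1853 (median 1190.4) in the active libraries and 184 to 876 (median 451) in the inactive ones. Active replicate 2 was the highest library for both, and neither passed (adjusted p = 0.165 and 0.354). The 2 that rose were Ier5 (log2 fold 0.45 ± 0.10, adjusted p = 0.00149) and the phosphatase gene Dusp1. Without active replicate 1 the count was 4, and without active replicate 2, 5 or 6 or inactive replicate 1 or 2 it was 1. Dusp1, which overlaps the glucocorticoid list, lost its call (log2 fold 1.14 ± 0.34, adjusted p = 0.0261) without active replicate 2, 5 or 6 or inactive replicate 1 or 2.

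Outside the clock and protein folding, the largest rises were in genes of varied function. Ndrg1, a stress- and hypoxia-responsive gene, had the largest gain in normalized counts of all called genes. It was at 65863 to 85303 (median 72612) in the active libraries and 18667 to 32869.8 (median 22382) in the inactive ones, 3.06-fold higher with wide separation (log2 fold 1.63 ± 0.11, adjusted p = 2.33e-10). It took 0.2342 ± 0.018% of the signal in active libraries and 0.07813 ± 0.0146% in inactive ones. Slc16a1, the lactate and ketone body carrier MCT1, was at 2096 to 2985 (median 2798) in the active libraries and 657 to 986 (median 799) in the inactive ones, again with no overlap (log2 fold 1.74 ± 0.08, adjusted p = 1.54e-15). Ppard, a nuclear receptor for fatty acids, was at 958 to 2045 (median 1462) in the active libraries and 284 to 408 (median 375) in the inactive ones. Active replicates 3 and 4, the libraries that stood apart, were its lowest active ones and still lay above every inactive library. Ypel2, of the yippee-like family, rose 3.18-fold (log2 fold 1.66 ± 0.11, adjusted p = 2.96e-11). Creg2, a secreted glycoprotein gene, rose from 6.50 ± 3.74 to 51.2 ± 12.1 normalized counts, Lingo4, a leucine-rich repeat membrane protein gene, 4.34-fold, Insc, which orients dividing cells, 2.86-fold, and Col13a1, a transmembrane collagen, 2.84-fold. Cyp26b1, which degrades retinoic acid, spread most within a group: active replicates 5 and 6 held 1924 and 3092 and the other 4 from 484 to 1066, with inactive values of 68.4 to 363 (log2 fold 2.51 ± 0.65, adjusted p = 0.0115). Rdh10 (0.75 ± 0.06) and Dhrs3 (0.54 ± 0.08), which make and reverse the retinaldehyde step of the same pathway, also rose. With Cyp26b1 they were the only 3 called of 22 tested retinoic acid genes, 13.6% against 15% of all tested genes.

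Of 21 hypoxia genes 7 rose and 3 fell, against 7.97% higher and 6.98% lower among all tested genes. Ndrg1 was among those that rose, as were the collagen prolyl hydroxylase P4ha2 (0.50 ± 0.10), the glucose carrier Slc2a1 (0.35 ± 0.06) and the vessel growth factor Vegfa (0.26 ± 0.05). Car9, Egln3 and Pfkfb3, also targets of hypoxia-inducible factors, were those that fell, with log2 folds of -0.80 ± 0.20, -0.51 ± 0.15 and -0.36 ± 0.09. Egln3 lost its call without active replicates 3 and 4 (adjusted p = 0.0576).

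Among metabolic genes, G6pc, the phosphatase that releases glucose in gluconeogenesis, was at 21652 to 39124 (median 26853) in the active libraries and 10272 to 13074 (median 11910.1) in the inactive ones. Active replicates 3 and 4, with little Pck1, were also its lowest active libraries but stayed above the inactive range. The groups of Pck1 itself overlapped, with active replicate 2 above and active replicate 3 below every inactive library (log2 fold -0.02 ± 0.32, adjusted p = 0.983). Without active replicates 3 and 4 Pck1 had a log2 fold of 0.48 (adjusted p = 0.289). Glul, glutamine synthetase, was at 32584 to 41999 (median 35615) in the active libraries and 17529 to 29927 (median 22069.7) in the inactive ones, with no overlap. G6pc and Glul were the only 2 that rose of 19 tested genes of gluconeogenesis and ammonia production. In that list 4 fell and 13 did not pass, only 4 had a positive fold, and the median log2 fold was -0.078. Of 40 genes of cholesterol synthesis and SREBP 10 rose and 1 fell, against 7.97% higher and 6.98% lower among all tested genes. The list median was 0.21. The falls were 2 without active replicate 5 or inactive replicate 4 or 5. Scd2, a fatty acid desaturase, was at 7172 to 11842 (median 8411) in the active libraries and 3868 to 6568 (median 5295) in the inactive ones, and Srebf1, the SREBP1 factor, rose by 0.59 ± 0.11. Active replicates 3 and 4 were the highest libraries for both. Of 43 genes of fatty acid oxidation 6 fell and 2 rose, 18.6% called against 15% of all tested genes, the former including the dienoyl-CoA reductase Decr2 (-0.61 ± 0.07), the carnitine palmitoyltransferase Cpt1a (-0.39 ± 0.06) and the pantetheinase Vnn1 (-0.69 ± 0.13). The rises were 1 without active replicate 4 or inactive replicate 1 or 3 and 5 with library weights. Of 40 autophagy and lysosome genes 8 fell and 1 rose, a rise lost without active replicate 1, 2, 5 or 6 or inactive replicate 1, while 2 rose without inactive replicate 2. The count of falls dropped to 5, 5 and 5 without active replicate 4, inactive replicate 3 or inactive replicate 5, and to 4 without active replicates 3 and 4. Txnip, a brake on glucose uptake, was at 7569 to 11769 (median 10316) in the active libraries and 12626 to 21442 (median 15017) in the inactive ones, so every active library lay below every inactive one.

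Enzymes that modify drugs and hormones moved both ways, where 7.97% of all tested genes were higher and 6.98% lower. Of 46 conjugation enzymes 8 fell and 5 rose (median log2 fold -0.18). Sult1d1, an abundant kidney sulfotransferase, was at 39971 to 56432 (median 47935) in the active libraries and 21455 to 35768 (median 27159) in the inactive ones, with no overlap. Gstt2 (-0.65 ± 0.07) and Gstm4 (-0.67 ± 0.11), glutathione transferases, fell and Gsta3, of another class of the same family, rose (0.48 ± 0.08). Reads from near-identical members of the Gst, Cyp2d and Akr1c families can be split between genes, so these values are uncertain. Of 31 cytochrome P450 genes and partners 4 rose and 4 fell, but 8 rose with DESeq2 and 9 with library weights. Cyp4b1 rose (0.60 ± 0.10), while Por, which hands electrons to all microsomal P450 enzymes, fell (-0.47 ± 0.10). The largest losses in normalized counts were in Hao2, a peroxisomal hydroxy acid oxidase, at 22872 to 30985 (median 27097) in the active libraries and 34276 to 44516 (median 39801) in the inactive ones, and in Akr1c21, a steroid-reducing enzyme, at 17308 to 28961 (median 24418) in the active libraries and 27912 to 38691 (median 35468) in the inactive ones. The groups of Hao2 did not overlap, and those of Akr1c21 did at inactive replicate 5. Without active replicates 3 and 4 the log2 fold of Akr1c21 was -0.42 against -0.61 with them, and it stayed called.

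Transport genes of the proximal tubule mostly fell where they changed. Their counts compare with 6.98% lower and 7.97% higher among all tested genes. Of 14 sugar carriers 4 fell and 1 rose (median log2 fold -0.20). 7 fell without active replicate 2, and 8 with libraries scaled to equal totals. Slc2a2, the basolateral glucose carrier GLUT2, was at 4495 to 6128 (median 4778) in the active libraries and 6882 to 8023 (median 7501) in the inactive ones, and Slc2a5, the fructose carrier, fell by 1.66-fold. Of 29 amino acid and peptide carriers 6 fell and 3 rose (median log2 fold -0.031). Slc6a19, the brush border carrier of neutral amino acids, was at 5247 to 7394 (median 5879) in the active libraries and 10251 to 16592 (median 14872) in the inactive ones, and the cystine carrier subunit Slc7a9 and its basolateral counterpart Slc7a7 fell by log2 folds of -0.49 ± 0.06 and -0.46 ± 0.07. The phosphate carrier Slc34a1, which is also a proximal tubule marker, fell slightly with overlapping groups (log2 fold -0.24 ± 0.06, adjusted p = 0.00707), and lost its call without active replicates 3 and 4 (adjusted p = 0.0986). Of 33 organic ion carriers 6 fell and 2 rose, and 5 rose without those libraries. A positive fold was seen in 17 of the 33, and their median log2 fold was 0.018. Car14, a membrane carbonic anhydrase of the proximal tubule, fell 1.77-fold (log2 fold -0.84 ± 0.10, adjusted p = 7.11e-07).

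The counts of genes further along the nephron compare with 7.97% higher and 6.98% lower among all tested genes. Of 25 genes of the distal convoluted tubule and the WNK kinase pathway 6 rose and 19 did not pass, among them Stk39, the kinase SPAK that switches on sodium chloride uptake (0.36 ± 0.06), and Slc8a1, the sodium-calcium exchanger (0.44 ± 0.08). Of 12 thick ascending limb genes 4 rose and 1 fell. Umod, a urinary protein gene, was at 41203 to 58178 (median 50865) in the active libraries and 30894 to 47646 (median 37171) in the inactive ones, and only active replicate 4, at 41203, lay inside the inactive range. Of 21 aldosterone-sensitive transport genes 5 rose and 5 fell. The ENaC subunit Scnn1a (0.56 ± 0.06) was among the former, and its activating protease Prss8 (-0.36 ± 0.05) and the potassium channel partner Lrrc55 (-1.86 ± 0.40) among the latter. The summed level of 12 markers of the loop, distal tubule and collecting duct was 201803 to 218554 in active and 176839.7 to 197294 in inactive libraries, without overlap, and 3 of the 12 rose and 1 fell. Its part in these results was not tested. In whole kidney, fewer cells of a type and less RNA per cell cannot be told apart.

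**Figure D4:**
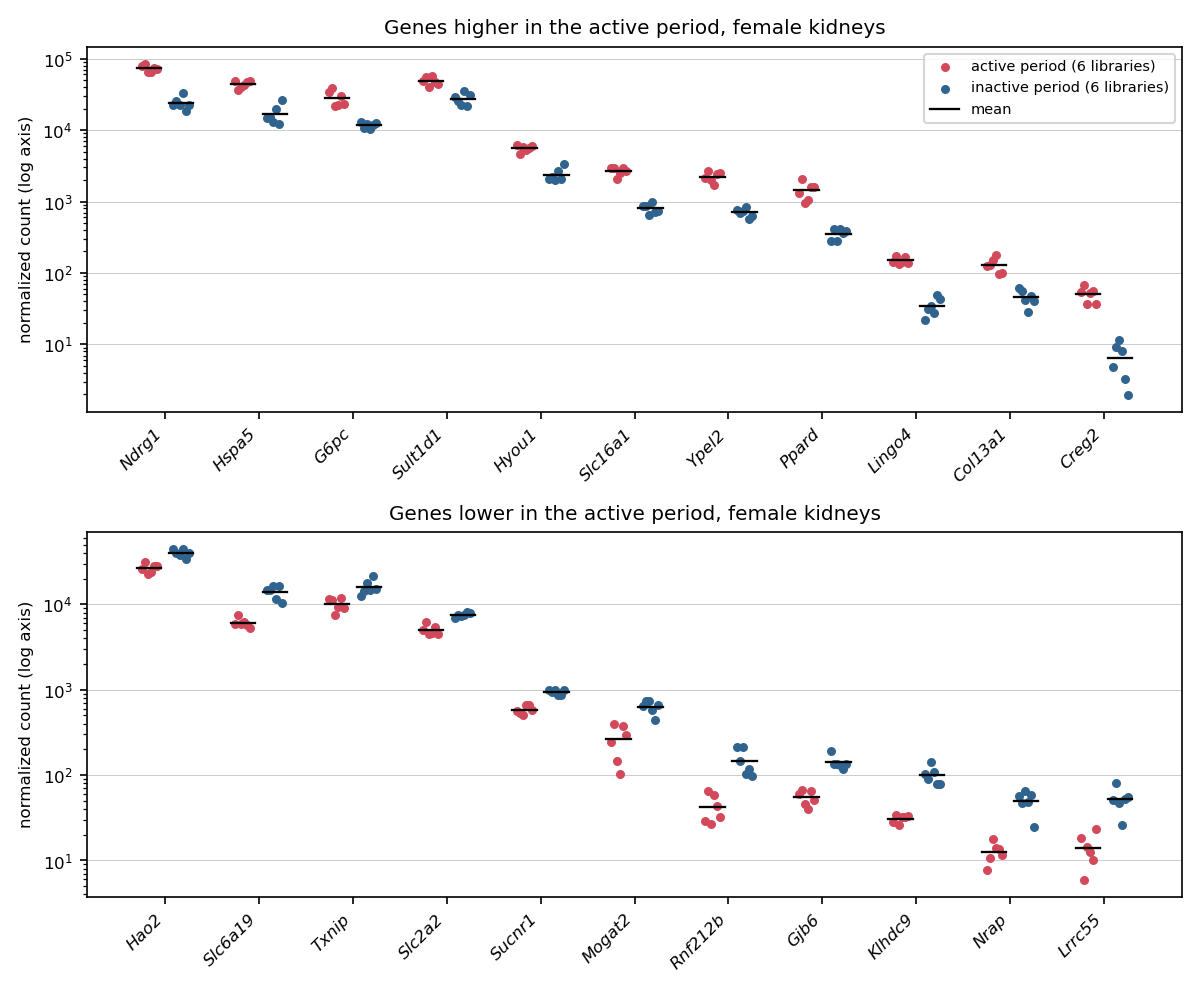
Normalized counts (log axis) of 22 genes outside the clock in the 6 active and 6 inactive female libraries, 1 point per library, set side by side from replicate 1 to 6, with the group mean as a line. The upper genes are higher and the lower genes lower in the active period, and in none of the 22 do the groups overlap. Many of the 22 were named by a rule that asks for groups without overlap.

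The genes with the largest falls outside the clock had low levels. Nrap, an actin-anchoring protein of muscle, was at 7.83 to 17.8 (median 12.7) in the active libraries and 24.5 to 64.5 (median 52.8) in the inactive ones. Rnf212b, a gene of meiotic recombination, was at 26.6 to 65.3 (median 38.0) in the active libraries and 96.9 to 213 (median 131) in the inactive ones, and Klhdc9, a kelch domain gene, at 25.8 to 34.1 (median 32.4) in the active libraries and 78.3 to 144 (median 96.1) in the inactive ones. None of these groups overlapped. Slitrk4 (3.04-fold), a neuronal membrane protein gene, Higd1c (2.72-fold), of the hypoxia-inducible domain family, Gjb6 (2.57-fold), the gap junction gene of connexin 30, and Catsperg1 (2.48-fold), a sperm calcium channel subunit gene, fell as well. Mogat2, which makes diacylglycerol, was at 103 to 399.7 (median 271) in the active libraries and 443 to 743 (median 651) in the inactive ones. Active replicates 3 and 4 held its lowest values, 145 and 103, and without them the log2 fold was -0.94 against -1.41 with them.

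Markers of cells other than tubules were called in some lists. Of 10 macrophage and dendritic cell, 7 red blood cell, 6 urothelium and 4 tested ovary and uterus markers limma called none (1 at an unadjusted p under 0.05, 0 called by edgeR and 0 by DESeq2). Of 9 endothelial markers 3 rose, the vascular growth factor receptors Flt1 (0.47 ± 0.09) and Kdr (0.31 ± 0.08) and the angiopoietin receptor Tek (0.45 ± 0.10), and 1 fell, the angiogenic factor Egfl7 (log2 fold -0.26 ± 0.09, adjusted p = 0.0398). Only 4 of the 9 had a positive fold, and their median log2 fold was -0.05. The summed level of the 9 overlapped, at 19692 to 25518 and 16599.6 to 22984. Flt1 itself was at 3217 to 4041 (median 3533) in the active libraries and 2076 to 2836 (median 2643) in the inactive ones, with no overlap. Of 9 podocyte markers 2 rose and 1 fell, so 33.3% were called, against 44.4% of the endothelial markers and 15% of all tested genes. Their summed level overlapped, at 18619 to 20311 and 16876 to 19411. Of 10 smooth muscle, pericyte and fibroblast markers 1 rose, and of 12 lymphocyte markers 1 fell. Of these calls, Egfl7 did not pass without active replicate 2 or 6 or inactive replicate 1, 2, 3 or 5. The podocyte rises fell to 1 without active replicate 1, 2, 5 or 6 or inactive replicate 1, 2 or 5 and to 0 by limma without active replicates 3 and 4 together. The single falls among podocyte and lymphocyte markers and the muscle and fibroblast rise were each lost without several single libraries, active replicate 3 among them. The part of these cells in the other results was not tested. Of 34 matrix genes 5 fell and 6 rose, the latter 3 with libraries scaled to equal totals and also 3 without active replicate 2, 5 or 6 or inactive replicate 2 or 5. Col1a1, the main fibrillar collagen chain, was at 515 to 719 (median 604) in the active libraries and 797 to 1039.7 (median 919) in the inactive ones, below the inactive range in every active library, while the basement membrane chain Col4a4 rose (0.26 ± 0.06). Of 38 cell division genes 1 passed, the cell cycle factor E2f1 (log2 fold 0.75 ± 0.26, adjusted p = 0.0463), whose call was lost without active replicate 2, 3 or 4 or inactive replicate 1, 3, 4, 5 or 6. The list held 2 and 3 called rises without active replicate 1 or 6, and 4 with DESeq2.

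The period change of females was then set beside that of males, with the difference between both tested for each gene in the same fit. That difference, coded as the female minus the male log2 fold, was called for 470 genes (2.71%), of which 287 were also called for the period in females. The count was 276 without active replicate 4, 293 and 290 without inactive replicate 2 or 3, and 301 without active replicates 3 and 4. Of the 2592 genes called in females, 2083 had a male fold of the same sign and 809 were called the same way in males. Of the 287 with a called difference, 196 had male folds of the opposite sign and 91 had a larger change in the same direction in females. These genes were chosen on their female values, so the share and the smaller male folds are a description. Clock genes were among those with a larger change in females: the difference was called for Nr1d2 (difference -0.93 ± 0.15, adjusted p = 0.00384), Npas2 (difference 1.45 ± 0.30, adjusted p = 0.00998), Per3 (difference -0.82 ± 0.19, adjusted p = 0.0208) and Tef (difference -0.63 ± 0.13, adjusted p = 0.0128), all with the same direction in both sexes. In males Npas2 was at 235 ± 63.9 and 70.9 ± 20.5 normalized counts, and Nr1d2 at 2411 ± 375 and 6967 ± 526. Neither Arntl nor Cry1 differed beyond the threshold (difference 0.82 ± 0.48, adjusted p = 0.368; difference 0.14 ± 0.37, adjusted p = 0.882).

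The smallest p for a difference between the sexes among genes called in females was that of Tmem25, a transmembrane protein gene, which fell in females and rose in males. It was at 1389.9 ± 171 and 1907 ± 216 normalized counts in active and inactive females and at 3863 ± 385 and 2654 ± 206 in active and inactive males (difference -0.996 ± 0.11, adjusted p = 2.37e-05). Sucnr1, the receptor by which the kidney senses succinate, was at 501 to 661 (median 572) in the active libraries and 859.9 to 995 (median 963) in the inactive ones of females, without overlap, and its male log2 fold of 0.22 ± 0.08 did not pass (difference -0.91 ± 0.11, adjusted p = 3.62e-05). A1cf, an RNA-binding factor of the proximal tubule and liver, rose 2.04-fold in females, from 1057 ± 137 to 2161 ± 140.4, and its male log2 fold was 0.09 ± 0.11 (difference 0.95 ± 0.15, adjusted p = 0.00267). Slc18a1, a vesicular monoamine carrier (difference -0.81 ± 0.13, adjusted p = 0.00267), and Qdpr, which recycles the cofactor of aromatic amino acid hydroxylases (difference -0.49 ± 0.08, adjusted p = 0.00267), fell in females and rose in males. Ipmk, an inositol phosphate kinase, did the reverse (difference 0.63 ± 0.10, adjusted p = 0.00267). Qdpr lost its female call without active replicates 3 and 4 (adjusted p = 0.0817). Slc16a1 (difference 0.69 ± 0.12, adjusted p = 0.00267) and Ndrg1 (difference 0.71 ± 0.15, adjusted p = 0.0146) rose in both sexes, and by more in females. Xbp1 rose in females alone by the test, with a male log2 fold of -0.04 ± 0.09 (difference 0.67 ± 0.13, adjusted p = 0.0078), whereas for Hspa5 the difference did not pass (difference 0.68 ± 0.23, adjusted p = 0.113). Col1a1 had a male log2 fold of 0.21 ± 0.13 (difference -0.78 ± 0.19, adjusted p = 0.0222).

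**Figure D5:**
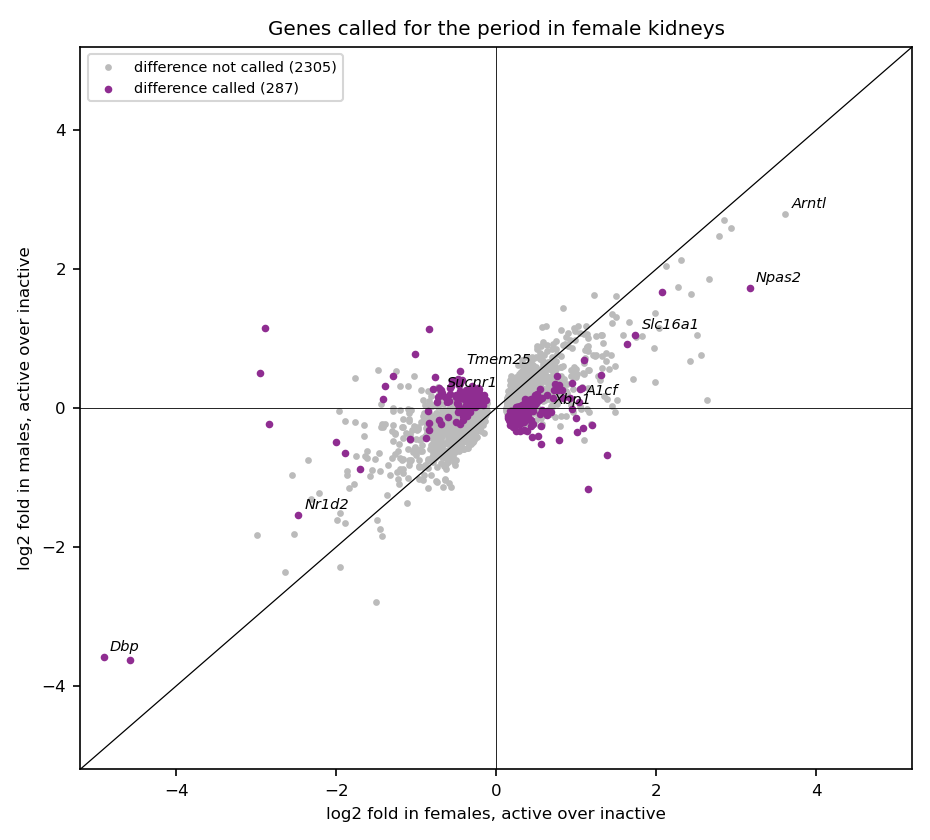
Log2 fold of the active over the inactive period in males (vertical axis) against that in females (horizontal axis) for the 2592 genes called in females, 1 point per gene, with the line of equal folds. The 287 genes in purple had a called difference between the sexes, among them Tmem25, Sucnr1, A1cf, Npas2 and Nr1d2.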

How the data were processed

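Poly A RNA of 24 mouse kidney samples was sequenced, and the authors deposited 1 table of normalized counts. Per the labels and the values, this signal is the read count of each gene divided by 1 factor per library. The genome build was GRCm39, per the submitters' processing notes, which also list featureCounts, DESeq2 1.28.1, Subread 2.0.6 and Trim Galore 0.6.10 with no role. Strand setting and annotation release: not given in the sources used here. Dividing each column by its smallest step gave whole reads within 0.05 for 100.0% of values in each library. For inactive replicate 4 and 1 male library the step was so near 1 that this says little. No further column was present. Of 56748 identifiers, 52073 took a symbol from a GRCm38 annotation and carried 99.2% of the signal.

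Genes with a mean of at least 10 were taken as log2(normalized count + 1) and fitted over 24 libraries in 4 groups with limma 3.58.1 (R 4.3.3, trended and robust prior, 20 residual degrees of freedom). The method was tested on simulated data. Reads were refitted with edgeR 4.0.16 and DESeq2 1.42.0. Other alternatives were pseudocounts of 0.5 and 5, no filter or a mean of 50, TMM, upper quartile and equal totals scaling, a plain prior, library weights, the title number as a block, females only, each female library left out, and, chosen after seeing the data, active replicates 3 and 4 left out together. Promoters are from RefSeq, GRCm38.p6, and were matched by symbol.

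Members and lists were chosen with earlier results of these data known. Genes were named by a rule: the 15 largest rises and 15 largest falls by log2 fold among called, symbol-bearing genes whose groups did not overlap and whose higher mean was at least 50, the 8 largest gains and 8 largest losses in normalized counts, the 4 smallest p-values among called genes of each list, all clock genes, the 8 called genes with the smallest p for a difference between the sexes, and the 8 called genes of widest spread within a period whose mean reached 50. Outside it, Acnat2, Alg12, Calr, Canx, Car9, Cnpy2, Creld2, Derl3, Egln3, Egr1, Fos, Hnrnpa3, Pck1, Pfkfb3 and Syvn1 were named after their values were seen. Some genes that the rule picks are not reported here.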

Additional observations from a re-analysis of the deposited data

Results flagged for a closer look

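In 284 groups of 6 female libraries, 1 gene and 1 period each, 15 (5.28%) had a library whose gap to its nearest neighbour, as a share of the range, passed Dixon's criterion. Chance gives about 1 in 20. Inactive replicate 6 stood apart for 4 genes, Creld2 (1208 normalized counts), Hsp90aa1 (14564), Nfil3 (276) and P4ha2 (804). Inactive replicate 2 did so for Car14 (3597) and E2f1 (98.7). The others among the inactive libraries were replicate 1 for Gjb6 (194), replicate 3 for Fos (246) and replicate 4 for Tek (1502). Among the active libraries, replicate 2 stood apart for Avpr1a (696), Slc18a1 (4386), Tsc22d3 (5873) and Usp2 (3817), replicate 4 for mt-Rnr1 (84289) and replicate 5 for Catsperg1 (39.4).

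For 36 of 142 named genes the change between the periods differed between females and males, by the limma test of the interaction, against 2.71% of all tested genes. The named genes include those picked for the smallest p of this difference. Most of the others were picked for large or clear changes in females, which are a part of the difference. The count is therefore in part fixed by their choice, and its excess over all tested genes is not a result. The values are the female log2 fold minus the male one. Clock genes gave Npas2 1.45, Dbp -1.32, Nr1d1 -0.95, Nr1d2 -0.93, Per3 -0.82 and Tef -0.63. Genes of protein folding and quality control in the ER gave Hsp90b1 0.59, Dnajc3 0.40, Xbp1 0.67, Canx 0.33, Sec61a1 0.24 and Uggt1 0.38. Transporters and enzymes of the tubule gave Slc16a1 0.69, Slc18a1 -0.81, Slc34a1 -0.35, Sult1d1 0.69, Akr1c21 -0.70, Car14 -0.62, Decr2 -0.47, Mogat2 -1.54, Qdpr -0.49 and Rdh10 0.29. The remaining genes gave A1cf 0.95, Cldn1 0.72, Col1a1 -0.78, Dusp1 2.31, Hnrnpa3 0.37, Ipmk 0.63, Leo1 0.40, Nars 0.25, Ndrg1 0.71, Nrap -1.25, Rpl3 -0.23, Sucnr1 -0.91, Tmem25 -0.996 and Vegfa 0.26. The differences of Leo1, Nr1d1, Nrap, Mogat2, Hsp90b1, Rdh10, Rpl3, Sec61a1, Vegfa and Dnajc3 were not called without certain single libraries, and those of Dbp and Slc34a1 were not called without active replicates 3 and 4 together.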

How the results depend on the processing

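Leaving out each of the 12 female libraries in turn gave 1092 to 1468 higher and 969 to 1221 lower genes, and 1696 genes (65.4% of those called) kept their call without each of them. Fitting the 12 female libraries alone called 2935 genes, and 2433 of the genes called in the main fit were among them. Scaling to equal totals moved the split to 1019 higher and 1570 lower, and the upper quartile to 1199 and 1415. The count of genes whose change differed between the sexes was 937 with DESeq2, 301 without active replicates 3 and 4, 247 with no filter, 289 with a plain prior and 276 to 574 with 1 library left out. The values near 0 that changed sign were uncalled throughout. Bhlhe40 was at 0.0279 without active replicates 3 and 4 and -0.036 to 0.0374 with 1 library left out. Pck1 was at 0.0495 with DESeq2, 0.0456 with edgeR, 0.12 with library weights, 0.479 without active replicates 3 and 4 and -0.223 to 0.20 with 1 library left out. Per1 was at -0.0914 with DESeq2, -0.0979 with edgeR, -0.0252 with equal totals, -0.00557 with library weights, -0.0132 with the upper quartile and -0.194 to 0.148 with 1 library left out. The cause was not tested. Male and female libraries share title numbers. Whether the numbers mark pairs cannot be told from the values, since a pairing need not show in them. Deviations of same-numbered libraries correlated from -0.104 to 0.124, and 4 of 12 female libraries correlated best with their own number. With the number as replicate block 2592 genes were called for the period and 492 for the difference. At this depth of 31039867 to 39302246 reads a female library, genes with a mean under 10 were not tested except with no filter, and with 6 libraries a group changes smaller than their spread were not detectable.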

Other observations

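Several genes outside the groups described so far also changed with the period. Tfrc, the transferrin receptor that takes up iron, was at 3741 to 5295 (median 4665) in the active libraries and 2295 to 3286 (median 2505) in the inactive ones, with no overlap (log2 fold 0.83 ± 0.11, adjusted p = 1.11e-05). Rsad2, an interferon-induced antiviral gene, rose 1.56-fold, from 1623 ± 220.2 to 2531 ± 287 normalized counts, and was the 1 called gene of 33 for interferon and antigen presentation. Of these 33 genes 3.0% were thus called, against 15% of all tested genes. DESeq2 and the fit with library weights each also called 2 of them lower, and 3 and 1 were called lower without inactive replicate 4 or 6. Fga, the fibrinogen alpha chain, which injured tubules also make, was at 895 to 1624 (median 1246) in the active libraries and 563 to 755 (median 670.4) in the inactive ones. These groups did not overlap either (log2 fold 0.88 ± 0.12, adjusted p = 8.08e-06). Clpx, a subunit of a mitochondrial protease (log2 fold 0.71 ± 0.08, adjusted p = 7.86e-08), and Leo1, a subunit of the PAF1 transcription complex (log2 fold 1.095 ± 0.08, adjusted p = 2.38e-11), rose, as did Cldn1, a tight junction claudin (log2 fold 0.64 ± 0.12, adjusted p = 3.20e-04).

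Of 22 genes of water channels, urea and vasopressin 2 rose and 1 fell, 13.6% called against 15% of all tested genes. Among these the vasopressin receptor Avpr1a rose 2.15-fold and the basolateral water channel Aqp3 fell 1.40-fold. Of 15 Kruppel-like transcription factors 4 fell, Klf11 (log2 fold -0.90 ± 0.21, adjusted p = 0.00549) and Klf13 (log2 fold -0.51 ± 0.08, adjusted p = 3.47e-05) with groups that did not overlap. Of the 15 genes 26.7% were called, against 15% of all tested genes. Without active replicates 3 and 4 the log2 fold of Klf11 was -0.58. Klf1 (log2 fold -0.79 ± 0.27, adjusted p = 0.0415) and Klf10 (log2 fold -0.61 ± 0.20, adjusted p = 0.0409) fell with overlapping groups. Neither was called without active replicate 3, 4 or 6, or without inactive replicate 3, 4 or 5, and the count was then 2 in each case. It was also 2 with no filter and without active replicates 3 and 4 together.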
